A study of Mus musculus with 16 samples.

Results

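The genes described here separate 2 mouse cell lineages in every condition in which they were grown. All 8 libraries of trophectoderm stem cell (TSC) origin were set against all 8 libraries of induced pluripotent stem cell (iPSC) origin, which together are all 16 libraries of the study, with culture and BMP4 as covariates. Of 31663 entries in the expression table, 13406 reached 1 FPKM in at least 2 libraries and were tested. FPKM corrects a fragment count for gene length and library total, so that levels of different genes can be set side by side. In 1252 of the genes tested (9.34%), all 8 libraries of TSC origin lay above, or all lay below, the 8 of iPSC origin, and the lineage difference passed limma's test. These are called lineage constants below.

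Trophectoderm is the outer layer of the blastocyst and the source of the trophoblast of the placenta, while the inner cell mass gives rise to the epiblast, whose pluripotent cells form the embryo itself. Trophoblast stem cells are kept in culture by FGF4 with heparin and depend on factors such as Cdx2, Eomes, Elf5 and Tfap2c. Pluripotent cells depend on Pou5f1 (Oct4), Sox2 and Nanog, and in the embryo the epiblast and the extraembryonic ectoderm signal to each other through Nodal, BMP4 and Wnt3.

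The TSC-origin groups were TSC alone, TSC alone with BMP4, the TSC part of an assembled structure and that part with BMP4, with 2 libraries each. The iPSC-origin groups were the same 4 conditions of iPSC, with 2 libraries each. TSC carried RFP and iPSC carried GFP, and single cells of both were mixed to form structures with a red and a green part, which were separated by hand under the microscope. All cultures grew with 5% Matrigel, 12.5 ng/ml of FGF4 and 500 ng/ml of heparin and were collected on day 3; the labels give no dose for BMP4, which was present for the last 24 hours. Each library was made by the Smart-seq2 protocol from 1 colony or 1 part of a structure, and whether both libraries of a group came from different cultures is not labelled, so the spread behind each p-value may be technical. The labels name neither the lines nor their strains, so a difference between lineages and a difference between lines cannot be told apart. In such bulk samples fewer cells of a kind and less RNA per cell cannot be told apart either.

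Pou5f1 and Nanog separated the lineages as labelled in all 16 libraries. Several genes of the other lineage were raised in 2 libraries, and some also in other libraries given below. The part of this in the results was not tested. Libraries of a group correlated across genes with Pearson's r of at least 0.929. Elf5, a transcription factor of trophoblast stem cells, stood at 5.51, 142 and 224 FPKM (lowest, median and highest library) in TSC origin and at 0, 0.294 and 50.4 FPKM in iPSC origin. The value of 50.4 FPKM belonged to 1 of the BMP4-treated assembled iPSC parts, replicate 2, and no other iPSC-origin library passed 0.413 FPKM. That library also had the highest summed level of 27 trophoblast stem cell genes in iPSC origin, at 956 FPKM, against 84.7 to 506 FPKM in the other 7. For 20 placental genes, replicate 1 of that group had the highest sum of iPSC origin, at 1532 FPKM, above the lowest of TSC origin, 752 FPKM. Replicate 2 of iPSC alone with BMP4 had Rhox6 at 61.6 FPKM, against 2.91 FPKM in replicate 1. It was the highest of its lineage in 16.6% of the constants higher in TSC origin. Dppa5a, an RNA-binding protein of pluripotent cells, stood at 499 FPKM in replicate 2 of the assembled TSC part and at most at 43.5 FPKM in the other TSC-origin libraries. This library had the highest level within its lineage in 300 of the 693 constants lower in TSC origin (43.3%). The assembled iPSC part of replicate 2 with BMP4 had the highest level within its lineage in 239 of the 559 constants higher in TSC origin (42.8%). Without these 2 libraries the constants number 1615, with 736 higher and 879 lower in TSC origin; 365 genes were added and 2 lost. Leaving libraries out can only ease the condition that the groups do not overlap, and leaving out any single library gave 1289 to 1488 constants.

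Of the 13406 genes tested, 5629 differed by lineage (42.0%), 2854 of them higher (21.3%) and 2775 lower (20.7%) in TSC origin, by limma at a Benjamini-Hochberg adjusted p of 0.05. The 1252 constants divide into 559 higher (4.17%) and 693 lower (5.17%) in TSC origin. The median difference over all genes tested was -0.00697 on the log2(FPKM + 1) scale, against 1.32 in the constants that were higher and -1.505 in those that were lower. At least a 2-fold difference was seen in 417 of the higher and 544 of the lower constants. The gap between the lineages, which is the distance on that scale from the lowest library of the higher lineage to the highest library of the lower one, reached 1 in 24 higher and 112 lower constants. The higher constants made up 6.34% to 9.98% of the summed FPKM in TSC-origin libraries and 2.11% to 3.38% in iPSC-origin libraries. The lower ones made up 2.21% to 3.16% in TSC origin and 6.03% to 7.52% in iPSC origin. The constants were chosen by these same values, so the direction of these medians and shares was fixed in advance. They describe size only. Names of predicted genes account for 124 of the constants and are not described singly.

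The widest gap among the higher constants belonged to Dbndd2, which encodes a dysbindin-domain protein. It stood at 18.97, 34.0 and 49.4 FPKM (lowest, median and highest library) in TSC origin and at 0.982, 1.67 and 3.63 FPKM in iPSC origin, a difference of 3.59 ± 0.23 on the log2(FPKM + 1) scale (SE, limma adjusted p = 1.73e-08, n = 8 libraries per lineage). Every TSC-origin library lay more than 5-fold above the highest of iPSC origin. Cdc42ep1, an effector of the small GTPase Cdc42 that acts on the actin skeleton, stood at 10.2, 23.4 and 33.7 FPKM in TSC origin and at 0.383, 1.24 and 2.00 FPKM in iPSC origin (3.35 ± 0.25, adjusted p = 5.06e-08). Gjb5, connexin 31.1, a gap junction protein made in skin and placenta, stood at 51.0, 85.9 and 194 FPKM in TSC origin and at 1.82, 5.44 and 16.4 FPKM in iPSC origin (3.78 ± 0.34, adjusted p = 3.42e-07). For both genes the lineages do not overlap, and the highest Gjb5 value of iPSC origin came from replicate 2 of the assembled part with BMP4.

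The promoters of these genes are given because both were among the most widely separated genes with high levels in TSC origin. They run from 250 bases before to 50 after the start, in the direction of transcription, from RefSeq on GRCm38.p6. Gjb5 lies on the minus strand at chr4:127358115-127358414 and Cdc42ep1 on the plus strand at chr15:78842397-78842696. Capitals mark matches, on either strand, to the AP-2 letters GCCNNNGGC, the ESRRB letters AAGGTCA and the TATA box letters TATAAA in Gjb5, and to the AP-2 letters, found in 2 places, and the TEAD letters GGAATG in Cdc42ep1.
Gjb5: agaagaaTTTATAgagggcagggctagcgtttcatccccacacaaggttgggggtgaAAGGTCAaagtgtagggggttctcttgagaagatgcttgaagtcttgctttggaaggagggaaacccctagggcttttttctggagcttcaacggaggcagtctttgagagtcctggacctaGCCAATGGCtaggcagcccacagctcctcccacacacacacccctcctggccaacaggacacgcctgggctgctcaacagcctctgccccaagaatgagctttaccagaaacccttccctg
Cdc42ep1: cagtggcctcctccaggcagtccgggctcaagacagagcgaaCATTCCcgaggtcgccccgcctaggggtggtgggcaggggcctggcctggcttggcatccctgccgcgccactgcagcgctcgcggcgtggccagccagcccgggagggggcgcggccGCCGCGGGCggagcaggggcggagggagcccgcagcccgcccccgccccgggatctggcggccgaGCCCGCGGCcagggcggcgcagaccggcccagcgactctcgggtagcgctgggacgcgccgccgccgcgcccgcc
Of 27025 promoters in the RefSeq table, 16.5% hold the AP-2 letters, 14.6% the TEAD letters, 4.66% the ESRRB letters and 14.2% the TATA letters. Of the 9424 tested genes that matched this table (70.3%), 25.7% hold the AP-2 letters, 11.5% the TEAD, 3.15% the ESRRB and 6.85% the TATA letters. The Cdc42ep1 window is 80.0% G or C, against a median of 52.7% over the 27025 promoters and 61% over the matched genes. All fixed AP-2 letters are G or C. Factors of the AP-2, TEAD and ESRRB families have members with higher levels in TSC origin over all 16 libraries, as given below. Esrrb was not higher in TSC alone, at 0 and 0.140 FPKM against 0.297 and 0.354 FPKM in iPSC alone, while Gjb5 was highest in TSC alone. A match is a run of letters and was not tested as a binding site. Fewer than 80% of the constants matched this table by symbol (75.1% of the higher and 67.4% of the lower), so a comparison of letters, GC content or CpG number over the whole sets is void and is not given.

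Several others of the 12 constants with the widest gaps above iPSC origin act on the cytoskeleton, lipids or growth signals. Cap1, which recycles actin, was the most even of them: it stood at 74.4, 82.0 and 125 FPKM in TSC origin and at 17.7, 22.5 and 27.2 FPKM in iPSC origin (1.92 ± 0.13, adjusted p = 3.28e-08), and its difference lay between 1.82 and 2.08 in all 4 conditions. Tagln2, an actin-binding transgelin, stood at 772, 1046 and 1631 FPKM in TSC origin and at 170.1, 253 and 346 FPKM in iPSC origin. Fabp3, which carries fatty acids in the cytoplasm, was the most abundant of the 12, at 1689, 2649 and 4767 FPKM in TSC origin and at 49.6, 67.7 and 662 FPKM in iPSC origin (4.62 ± 0.47, adjusted p = 1.41e-06). Its lineages did not overlap, although the value of 662 FPKM, again in the assembled iPSC part of replicate 2 with BMP4, is far above the median. Gdpd3, a lysophospholipase D, stood at 3.74, 9.23 and 36.6 FPKM in TSC origin and at no more than 0.424 FPKM in any iPSC-origin library. Grb10, an imprinted adaptor that restrains insulin and IGF receptors, stood at 14.9, 38.5 and 58.6 FPKM in TSC origin and at 0.212, 0.732 and 5.92 FPKM in iPSC origin. Fstl3, which binds activins, stood at 7.53, 8.80 and 24.0 FPKM in TSC origin and at 1.12, 2.05 and 2.51 FPKM in iPSC origin. Mgat4b, an enzyme of N-glycan branching, Nabp1, which binds single-stranded DNA, and Smagp, a small membrane glycoprotein, complete the 12, with gaps of 1.44, 1.34 and 1.19.

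The 6 further higher constants with the largest differences had narrower gaps; they were Rhox6, Rhox9, Rhox4b, Rhox4g, Igf2 and Tinagl1. Rhox6, a homeobox gene of the X-linked Rhox cluster, stood at 214, 721 and 8183 FPKM in TSC origin and at 2.91, 4.11 and 181 FPKM in iPSC origin (6.73 ± 0.85, adjusted p = 1.24e-05). Rhox9 of the same cluster stood at 211, 464 and 4206 FPKM in TSC origin and at 1.31, 3.49 and 142 FPKM in iPSC origin. Igf2, the imprinted fetal growth factor, stood at 299.9, 814 and 1345 FPKM in TSC origin and at 1.32, 2.57 and 214 FPKM in iPSC origin (6.73 ± 0.72, adjusted p = 2.28e-06). Tinagl1, which encodes a secreted matrix protein, stood at 74.5, 99.5 and 257 FPKM in TSC origin and at 0.937, 3.71 and 45.8 FPKM in iPSC origin (4.48 ± 0.49, adjusted p = 2.90e-06). The lineages did not overlap in any of these genes. Within assembled parts with BMP4 the difference did not pass by limma for Rhox6 (3.60, adjusted p = 0.121), Rhox9 (3.73, adjusted p = 0.104), Igf2 (3.33, adjusted p = 0.0677) and Tinagl1 (2.79, adjusted p = 0.0633). It passed there for Rhox4b (3.10, adjusted p = 0.0448) and Rhox4g (3.59, adjusted p = 0.0110). Rhox4b and Rhox4g are near-identical copies, so the split of reads between them is uncertain.

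The constants that were lower in TSC origin had the wider gaps. Among those described, Tspan6 had the widest gap, 2.90 on the log2(FPKM + 1) scale. Tspan6, a tetraspanin of the cell membrane, stood at 0.187, 0.344 and 3.74 FPKM in TSC origin and at 34.5, 44.7 and 62.5 FPKM in iPSC origin (-4.87 ± 0.24, adjusted p = 1.44e-09). Gja1, connexin 43, stood at 0.232, 1.55 and 9.21 FPKM in TSC origin and at 62.9, 88.5 and 120.4 FPKM in iPSC origin, opposite in direction to the connexin Gjb5. In all 12 of the lower constants with the widest gaps, the highest TSC-origin value was that of replicate 2 of the assembled part.

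**Figure D1:**
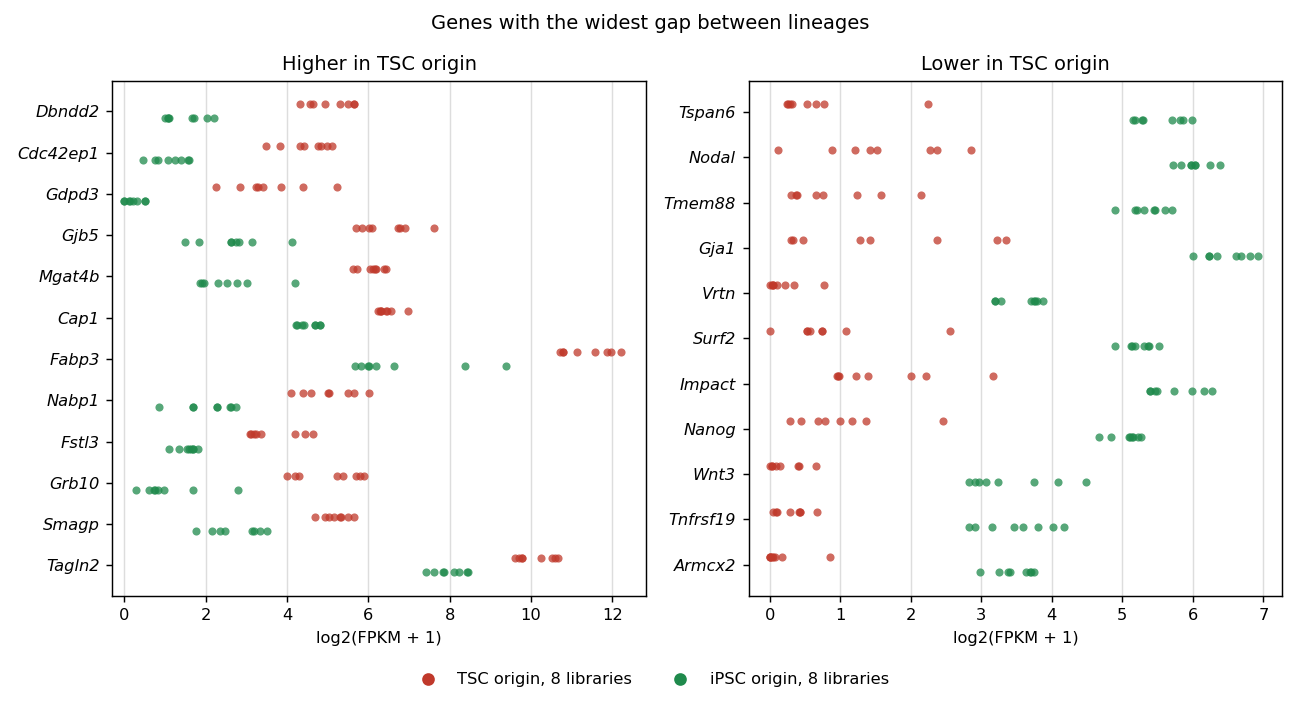
Constants with the widest gaps (12 higher and 11 lower in TSC origin), as log2(FPKM + 1) on the horizontal axis, with 1 point per library: red for the 8 of TSC origin and, below them in each row, green for the 8 of iPSC origin. Red and green do not overlap in any row; Tspan6 has the widest gap of those drawn, with 0.187 to 3.74 FPKM in TSC origin and 34.5 to 62.5 FPKM in iPSC origin.

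Signalling ligands and pluripotency factors fill most of the other places. Nodal, the TGF-beta family ligand that the epiblast makes, stood at 0.0807, 1.77 and 6.21 FPKM in TSC origin and at 51.7, 63.0 and 82.5 FPKM in iPSC origin (-4.44 ± 0.30, adjusted p = 2.80e-08). Wnt3, which the primitive streak needs to form, stood at 0, 0.0847 and 0.577 FPKM in TSC origin and at 6.12, 7.90 and 21.5 FPKM in iPSC origin. Tmem88, a membrane protein that restrains Wnt signalling through Dishevelled, stood at 0.237, 0.628 and 3.42 FPKM in TSC origin and at 28.8, 40.6 and 51.1 FPKM in iPSC origin. In each of the 3 genes the lowest iPSC-origin value was more than 8 times the highest TSC-origin value. Nanog, the homeobox factor of pluripotency, stood at 0.224, 0.859 and 4.51 FPKM in TSC origin and at 24.4, 33.8 and 37.4 FPKM in iPSC origin (-4.03 ± 0.25, adjusted p = 1.54e-08). Its difference lay between -4.38 and -3.75 in the 4 conditions. Impact, an imprinted regulator of translation, stood at 0.944, 1.49 and 7.99 FPKM in TSC origin and at 40.9, 47.9 and 76.6 FPKM in iPSC origin. Vrtn, Surf2, Tnfrsf19 (a TNF receptor family member) and the X-linked Armcx2 also belong to the 12, with gaps between 2.13 and 2.43.

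The promoter of Nanog is shown because Nanog is the pluripotency factor among the 12 lower constants with the widest gaps, although the difference of Pou5f1 was larger; the first of its 2 RefSeq promoters, on the plus strand at chr6:122707239-122707538 (GRCm38.p6), was read. Capitals mark the letters TTTGCAT, which are ATGCAAA on the other strand and the first 7 letters of the octamer that Oct4 binds, and ACAATG, the first 6 letters of a SOX motif, separated by 1 base.
Nanog: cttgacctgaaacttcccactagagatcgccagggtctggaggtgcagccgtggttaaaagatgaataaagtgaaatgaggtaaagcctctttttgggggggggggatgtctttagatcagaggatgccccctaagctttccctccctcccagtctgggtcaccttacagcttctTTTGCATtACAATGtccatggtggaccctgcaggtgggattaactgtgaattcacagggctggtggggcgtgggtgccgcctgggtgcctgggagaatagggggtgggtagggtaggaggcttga
The full octamer ATGCAAAT and the longer SOX letters ACAATGG are not in this window and occur in 1.75% and 3.71% of all 27025 promoters; the shorter forms, chosen after the sequence had been seen, occur in 4.59% and 12.8%.

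The constants with the highest levels differed in both directions. Rpl26, a ribosomal protein, stood at 2245, 3778 and 4882 FPKM in TSC origin and at 629, 752 and 1856 FPKM in iPSC origin. Dbi, which binds acyl-CoA, stood at 1645, 2451 and 2786 FPKM in TSC origin and at 569, 801 and 1195 FPKM in iPSC origin. Ubb, a polyubiquitin gene, stood at 4183, 5073 and 6665 FPKM in TSC origin and at 2191, 2580.1 and 3436 FPKM in iPSC origin (0.98 ± 0.13, adjusted p = 2.09e-05). All 3 rose in TSC origin, and reads of the repeated units of Ubb may not be unique to it. Rplp0, a ribosomal stalk protein, stood at 1004, 2332 and 2962 FPKM in TSC origin and at 3611, 3989.5 and 6317 FPKM in iPSC origin (-1.15 ± 0.17, adjusted p = 4.37e-05). Eno1, the glycolytic enolase, stood at 346, 571 and 765 FPKM in TSC origin and at 1177, 2039.5 and 2819 FPKM in iPSC origin (-1.82 ± 0.22, adjusted p = 9.80e-06). Ribosomal protein genes and Eno1 have processed pseudogenes that could share their reads.

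Among 27 tested genes known from trophoblast stem cells or the extraembryonic ectoderm, 20 rose and 2 fell in TSC origin, with a median difference of 1.92, against 21.3% higher and 20.7% lower over all genes. Of the 27, 4 were higher constants, against 4.17% over all genes tested. Among them were Rhox6, Rhox9 and Tfap2c, the AP-2 gamma factor that trophoblast stem cells need. Tfap2c stood at 21.4, 40.0 and 140.5 FPKM in TSC origin and at 0.842, 4.44 and 13.8 FPKM in iPSC origin (3.41 ± 0.35, adjusted p = 1.44e-06). Elf5 (5.29 ± 0.64), the bHLH factor Hand1 (5.25 ± 0.70), Tead4, which starts the trophectoderm program (2.62 ± 0.27), Gata3 (2.52 ± 0.50) and the FGF receptor Fgfr2 (2.88 ± 0.44) all rose but overlapped between lineages. Without the 2 libraries with raised genes of the other lineage, 9 members of this list were higher constants, against 736 of all 13292 genes tested in that fit. Elf5, Hand1 and Tead4 were among the 9, with gaps of 2.20, 2.55 and 1.35. Lef1 and Sp8 fell and were constants in that direction: Lef1, the nuclear partner of beta-catenin, stood at 0, 0.0476 and 2.19 FPKM in TSC origin and at 3.97, 6.52 and 15.6 FPKM in iPSC origin.

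The 2 factors most used to name trophoblast stem cells did not separate the lineages. Cdx2 stood at 0, 2.97 and 6.24 FPKM in TSC origin and at 0.245, 0.864 and 6.16 FPKM in iPSC origin (0.77 ± 0.31, adjusted p = 0.0569). Eomes stood at 0.0844, 14.0 and 33.8 FPKM in TSC origin and at 2.03, 3.35 and 18.1 FPKM in iPSC origin (0.82 ± 0.39, adjusted p = 0.102). Its difference varied with the condition (moderated F adjusted p = 0.00580): it was -1.48 in cells alone, and 1.93 alone with BMP4, 1.99 in assembled parts and 0.82 in assembled parts with BMP4. Krt8, the keratin of simple epithelia, stood at 17.4, 295 and 2931 FPKM in TSC origin and at 58.1, 125 and 324 FPKM in iPSC origin, and did not pass (adjusted p = 0.185).

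**Figure D2:**
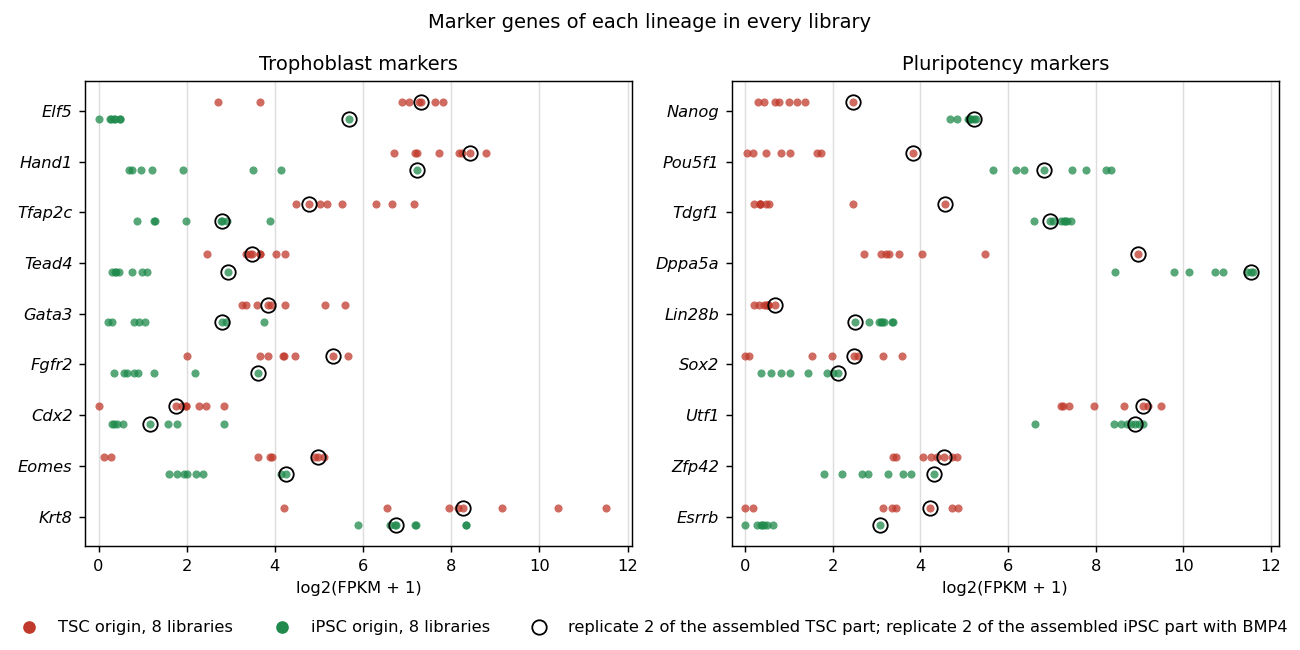
Markers of trophoblast (left) and of pluripotency (right) as log2(FPKM + 1), with 1 point per library, red for TSC origin and, below, green for iPSC origin. Rings mark replicate 2 of the assembled TSC part (red rows) and the assembled iPSC part of replicate 2 with BMP4 (green rows), which lie toward the other lineage for Elf5 (50.4 FPKM in the ringed iPSC library) and Dppa5a (499 FPKM in the ringed TSC library).

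Of 20 genes of differentiated trophoblast and placenta, 12 rose and 1 fell in TSC origin, against 21.3% and 20.7% over all genes tested. The median difference of the 20 was 2.44. Higher constants made up 4.17% of all genes tested. Of the 20 genes, 3 were constants, against 6 without the 2 libraries named above. Those 3 were Dlx3, a homeobox factor of placental development, Cdkn1c, an imprinted inhibitor of the cell cycle, and Slco2a1, a prostaglandin carrier. Cdkn1c stood at 2.26, 12.6 and 480 FPKM in TSC origin and at 0.265, 0.780 and 1.55 FPKM in iPSC origin. Phlda2, an imprinted gene that limits placental growth, stood at 158, 1217 and 6773 FPKM in TSC origin and at 37.0, 54.4 and 207 FPKM in iPSC origin (4.40 ± 0.54, adjusted p = 8.94e-06), and overlapped. The other 10 names of this list, such as Tpbpa, Prl3d1, Syna and Synb, did not reach 1 FPKM in 2 libraries and were not tested.

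Among 29 genes of core and naive pluripotency, 14 fell and 8 rose in TSC origin, against 20.7% and 21.3% over all genes tested. The median difference of the 29 was -0.59. Of the 29, 9 were lower constants, against 5.17% over all genes tested. These 9 included Tdgf1, Pou5f1, Gdf3, Nanog, Dppa3, Dnd1, Lin28b and L1td1. Pou5f1 stood at 0.0335, 0.894 and 13.2 FPKM in TSC origin and at 49.5, 143 and 326 FPKM in iPSC origin (-5.89 ± 0.50, adjusted p = 2.21e-07). Lin28b, which blocks let-7 processing, stood at 0.146, 0.407 and 0.609 FPKM in TSC origin and at 4.66, 7.68 and 9.40 FPKM in iPSC origin. Sox2 stood at 0, 3.78 and 11.05 FPKM in TSC origin and at 0.281, 1.36 and 3.34 FPKM in iPSC origin and did not pass (0.65 ± 0.41, adjusted p = 0.215). Utf1, a chromatin factor used as a marker of undifferentiated cells, stood at 148, 325 and 724 FPKM in TSC origin and at 97.6, 434 and 541 FPKM in iPSC origin (adjusted p = 0.653). The genes that rose were Klf2, Klf4, Tbx3, Zfp42, Esrrb, Nr0b1, Tfcp2l1 and Tex19.1, and trophoblast stem cells are known to use Esrrb as well. Esrrb was low in TSC alone, at 0 and 0.140 FPKM, and stood at 7.79 to 28.1 FPKM in the other TSC-origin libraries. Tex19.1, which restrains retrotransposons, was a constant, at 90.8, 211 and 341 FPKM in TSC origin and 7.17, 17.2 and 57.4 FPKM in iPSC origin.

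Genes of the formative or primed epiblast fell in 10 of 19 cases and rose in 2, against 20.7% and 21.3% over all genes tested. The median difference of the 19 was -0.71. Otx2, a head and epiblast homeobox factor, stood at 0, 0 and 0.735 FPKM in TSC origin and at 1.30, 4.89 and 16.6 FPKM in iPSC origin. The ETS factor Etv1 and Lef1 were the other constants, so 3 of the 19 were lower constants, against 5.17% over all genes tested. Without the 2 libraries named above there were 6 lower ones. Pou3f1 (Oct6), listed here for the primed epiblast, rose instead, at 4.45, 15.8 and 29.7 FPKM in TSC origin and 0.415, 2.73 and 5.16 FPKM in iPSC origin (2.27 ± 0.32, adjusted p = 3.37e-05). Of 24 genes of the primitive streak and early mesoderm, 11 fell and 5 rose. T (brachyury), the T-box factor of the streak, stood at 0.162, 0.731 and 16.7 FPKM in TSC origin and at 39.6, 204 and 326 FPKM in iPSC origin (-5.85 ± 0.48, adjusted p = 1.61e-07). Fst, Fgf8, Wnt3, Hoxb1 and Evx1 were the other 5 of the 6 constants of this list, all lower, against 5.17% over all genes tested. T was thus high in all 8 iPSC-origin libraries, with and without BMP4.

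Of 16 genes of the Nodal pathway tested, 8 fell and 6 rose in TSC origin, against 20.7% and 21.3% over all genes tested. The ligands Nodal and Gdf3, the coreceptor Tdgf1 (Cripto) and the inhibitor Lefty2 were among its 5 constants, all lower. Lower constants made up 5.17% of all genes tested. Lefty2 stood at 0, 0.437 and 2.36 FPKM in TSC origin and at 4.83, 17.5 and 34.5 FPKM in iPSC origin. Tdgf1 stood at 0.153, 0.335 and 22.5 FPKM in TSC origin and at 95.2, 151 and 172 FPKM in iPSC origin, with the 22.5 FPKM in replicate 2 of the assembled TSC part. The transducers Smad2 (0.90 ± 0.18), Smad3 (1.75 ± 0.23) and Smad4, the inhibitor Smad7 (1.28 ± 0.23) and the convertases Furin and Pcsk6, which cleave the Nodal precursor, rose in TSC origin. Of 19 genes that FGF and ERK signalling induces or that restrain it, 9 fell and 2 rose. The ERK phosphatase Dusp6 was a constant, at 0.0433, 9.26 and 23.1 FPKM in TSC origin and 35.0, 59.9 and 141 FPKM in iPSC origin, and its difference varied with the condition, between -5.76 in cells alone and -1.82 in assembled parts with BMP4 (moderated F adjusted p = 0.0120).

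Imprinted genes, which are expressed from 1 parental copy, held constants in both directions, 5 higher and 7 lower of 26 tested. Over all genes tested, 4.17% were higher and 5.17% were lower constants, and 21.3% were called higher and 20.7% lower. The higher ones were Igf2, Grb10, Cdkn1c, Sfmbt2 and Slc22a18. Sfmbt2, a Polycomb group gene that the placenta needs, stood at 27.3, 37.1 and 79.7 FPKM in TSC origin and at 0.813, 2.92 and 13.9 FPKM in iPSC origin. The lower ones were Impact, Nnat, Zdbf2, Nap1l5, Dlk1, Sgce and Magel2. Zdbf2 stood at 0.0206, 0.281 and 1.17 FPKM in TSC origin and at 3.80, 9.18 and 21.3 FPKM in iPSC origin, and Nap1l5 was at most 0.0364 FPKM in TSC origin and at least 0.849 FPKM in iPSC origin. In all, 9 rose and 11 fell, with a median difference of -0.17, which turned to 0.48 when a gene had to reach 1 FPKM in 8 or more libraries. H19, the noncoding neighbour of Igf2, stood at 0, 0.529 and 9.31 FPKM in TSC origin and at 1.11, 3.17 and 85.8 FPKM in iPSC origin and did not pass (adjusted p = 0.0644).

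Of 28 keratin, junction and adhesion genes, 14 rose and 6 fell in TSC origin, and 1 was a constant: Cldn3, a tight junction claudin, at 54.6, 178 and 402 FPKM in TSC origin and 3.99, 9.85 and 44.4 FPKM in iPSC origin (3.90 ± 0.41, adjusted p = 1.94e-06). The cell adhesion genes Cdh1 and Epcam did not pass, with differences of -0.28 ± 0.40 and -0.26 ± 0.24. Over all genes tested the shares were 21.3% higher and 20.7% lower, with 4.17% higher and 5.17% lower constants. Among 21 genes of the Hippo pathway, 6 rose and 2 fell; Tead1 was a constant at 3.62 to 6.82 FPKM in TSC origin and 1.34 to 3.59 FPKM in iPSC origin, and Ctgf, a target of YAP and TEAD, was a constant in the other direction at 0.205 to 8.96 FPKM in TSC origin and 11.3 to 27.1 FPKM in iPSC origin. DNA methylation genes had 5 higher and 4 lower of 19, with the demethylating enzyme Tet1 as their constant, lower in TSC origin. Placental transport genes had 6 higher and 4 lower of 20 (4 higher without the 2 libraries named above). The counts of the methylation and transport lists were near the shares over all genes. The numbers of constants in the keratin, Hippo and methylation lists were near the shares of constants over all genes. Of 17 genes used as internal controls, 4 rose and 7 fell, while Gapdh and Actb did not pass, with differences of 0.34 ± 0.14 and 0.21 ± 0.14.

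**Figure D3:**
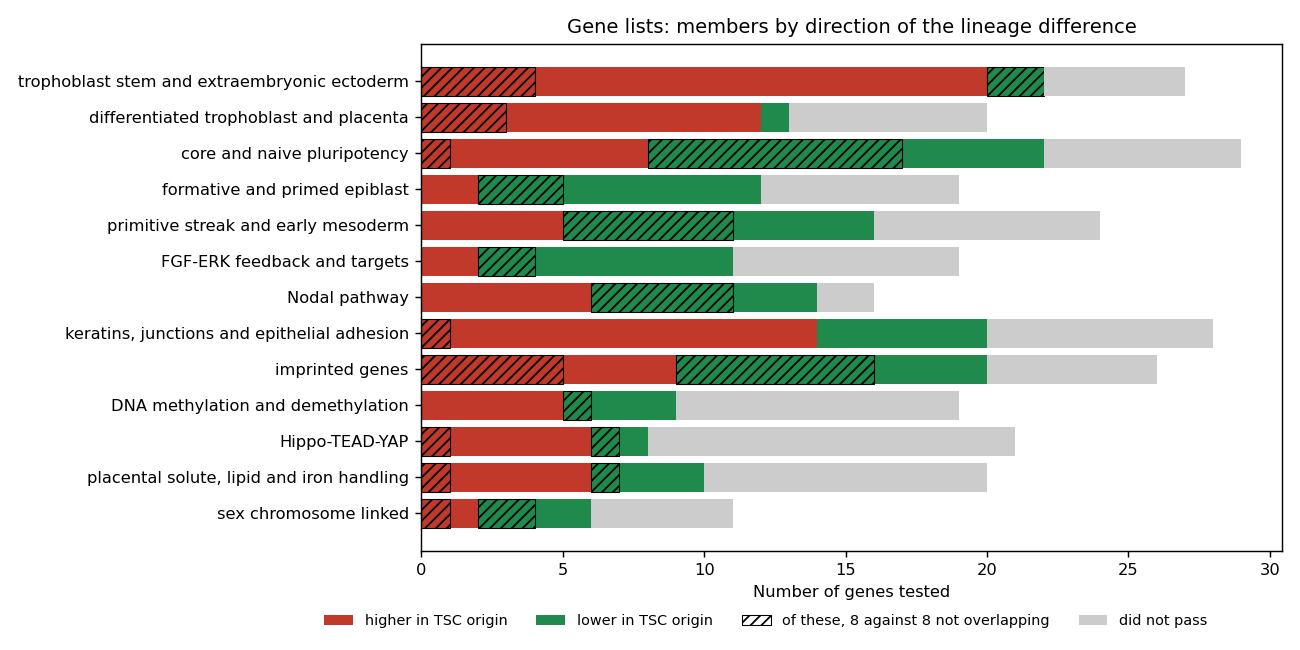
Number of tested genes in each of 13 lists that were higher (red), lower (green) or did not pass (grey) in TSC origin against iPSC origin by limma over 16 libraries. Hatching marks those in which the 8 libraries of each lineage do not overlap: 4 of the 20 higher trophoblast stem cell genes and 9 of the 14 lower pluripotency genes. Over all genes tested, 4.17% were higher and 5.17% lower constants.

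Markers of other cell types were mostly low. For the counts that follow, the shares over all genes tested were 21.3% higher and 20.7% lower, with 4.17% higher and 5.17% lower constants. Of 12 fibroblast or feeder markers, 4 were tested and their summed level was 5.30 to 17.7 FPKM in TSC origin and 21.8 to 69.3 FPKM in iPSC origin; the collagens Col1a1, Col1a2 and Col3a1 did not reach 1 FPKM in 2 libraries. Tagln and Fbln1 fell, and Tagln was a constant. Of 18 endoderm markers 8 were tested, of which 5 rose and 1 fell, with the collagen Col4a2 a higher constant; their sums were 47.9 to 308 FPKM in TSC origin and 68.7 to 155 FPKM in iPSC origin, while Sox17, Gata6 and Hnf4a were not high enough to test. Neural markers (4 of 10 tested, sums of 1.70 to 3.86 FPKM in TSC origin and 2.74 to 13.3 FPKM in iPSC origin) and blood or endothelial markers (3 of 10 tested, 1.75 to 8.48 FPKM in TSC origin and 0.139 to 1.20 FPKM in iPSC origin) were lower still. Of 8 germ cell markers tested 4 fell and 1 rose, with sums of 24.3 to 146 FPKM in TSC origin and 38.4 to 111 FPKM in iPSC origin; the 4 constants of that list were Tfap2c (higher) and Dppa3, Dnd1 and Ddx4 (lower), and the first 3 are also markers of the 2 lineages. Their part in the lineage differences was not tested.

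The lineage difference was also taken in each condition on its own. It passed for 4878 genes in cells alone (36.4%), 2436 in cells alone with BMP4 (18.2%), 2271 in assembled parts (16.9%) and 1359 in assembled parts with BMP4 (10.1%). These counts each rest on 4 libraries with a spread shared over all 16. With the spread taken from the 4 libraries of a condition only, 1195 genes passed in cells alone with BMP4 and 8 in assembled parts with BMP4. Leaving out either library of iPSC alone gave 3225 and 3045 in cells alone. Leaving out replicate 1 or 2 of iPSC alone with BMP4, or replicate 1 of TSC alone with BMP4, gave 959, 1133 and 1480. In assembled parts, leaving out replicate 1 or 2 of the iPSC part gave 1048 and 985, and of the TSC part 901 and 1474. With BMP4, leaving out replicate 1 of the iPSC part gave 519, and replicate 1 or 2 of the TSC part 502 and 630. A lone library left in a group is assumed to vary like the others. Of the 1252 constants, 485 passed in all 4 conditions, 190 of them higher and 295 lower in TSC origin, and 26 passed in none. All 24 of the constants with the widest gaps passed in each condition. They were chosen by the gap over these same libraries, so this result largely follows from the choice and adds no support. The median difference of the higher constants was 1.595 in cells alone, 1.24 in cells alone with BMP4, 1.38 in assembled parts and 1.04 in assembled parts with BMP4. For the lower constants these medians were -1.81, -1.56, -1.30 and -1.28. The sign of both sets of medians was fixed by the choice of the constants.

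A direction that held in every library could still come with a changing size. The difference itself varied between the 4 conditions in 746 genes (5.56%) by limma's moderated F over 3 contrasts, 76 constants among them, 42 higher and 34 lower. The count of 746 fell to 151 and 131 without replicate 1 or 2 of iPSC alone, to 438 and 435 without replicate 1 or 2 of the assembled iPSC part, to 466 without replicate 2 of iPSC alone with BMP4 and to 433 without replicate 1 of the assembled TSC part with BMP4. Dlx3 stood at 87.2 and 81.0 FPKM in TSC alone, and at 1.07 and 0.412 FPKM in iPSC alone. In assembled parts with BMP4 it stood at 2.81 and 4.503 FPKM in TSC origin and at 0.559 and 0.497 FPKM in iPSC origin. The libraries of TSC alone were thus the high ones, and the difference was 5.64 ± 0.30 alone and 1.58 ± 0.30 in assembled parts with BMP4. Vgll1, a cofactor of TEAD factors, stood at 33.4 and 55.2 FPKM in TSC alone, against 0 and 0.0518 FPKM in iPSC alone. It stood at 0.648 and 1.96 FPKM in the assembled TSC part, with 0 in both libraries of the assembled iPSC part. Serpinb9b, a serine protease inhibitor, Zxdc, a zinc finger protein, and Exoc3l4 had the same pattern, with differences of 5.21, 3.79 and 4.30 in cells alone and at most 2.12 in the other 3 conditions. Limd2, a LIM domain protein, was lower in TSC origin throughout, by -4.12 ± 0.22 in cells alone and by -1.41 to -1.16 elsewhere.

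In 88 genes the difference passed in opposite directions in 2 conditions, so that they marked lineage only within a condition. Inpp1, an inositol phosphatase, stood at 0.106 and 1.08 FPKM in TSC alone and at 2.31 and 2.82 FPKM in iPSC alone. With BMP4 it stood at 59.3 and 76.1 FPKM in TSC alone, and at 2.77 and 3.19 FPKM in iPSC alone. Its values in iPSC origin stayed between 1.61 and 3.19 FPKM in all 8 libraries, while those of TSC origin ran up to 103 FPKM. Car2, a carbonic anhydrase, was lower in TSC origin in cells alone (-4.19 ± 0.39) and in assembled parts (-1.61 ± 0.39) and higher in cells alone with BMP4 (1.26 ± 0.39) and in assembled parts with BMP4 (1.64 ± 0.39). Ddah1, Sord, Upp1 and Mgarp were lower in TSC than in iPSC alone and higher in at least 1 other condition, and Crabp1, a carrier of retinoic acid, was higher only in assembled parts with BMP4 among the 4 (1.26 ± 0.33).

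**Figure D4:**
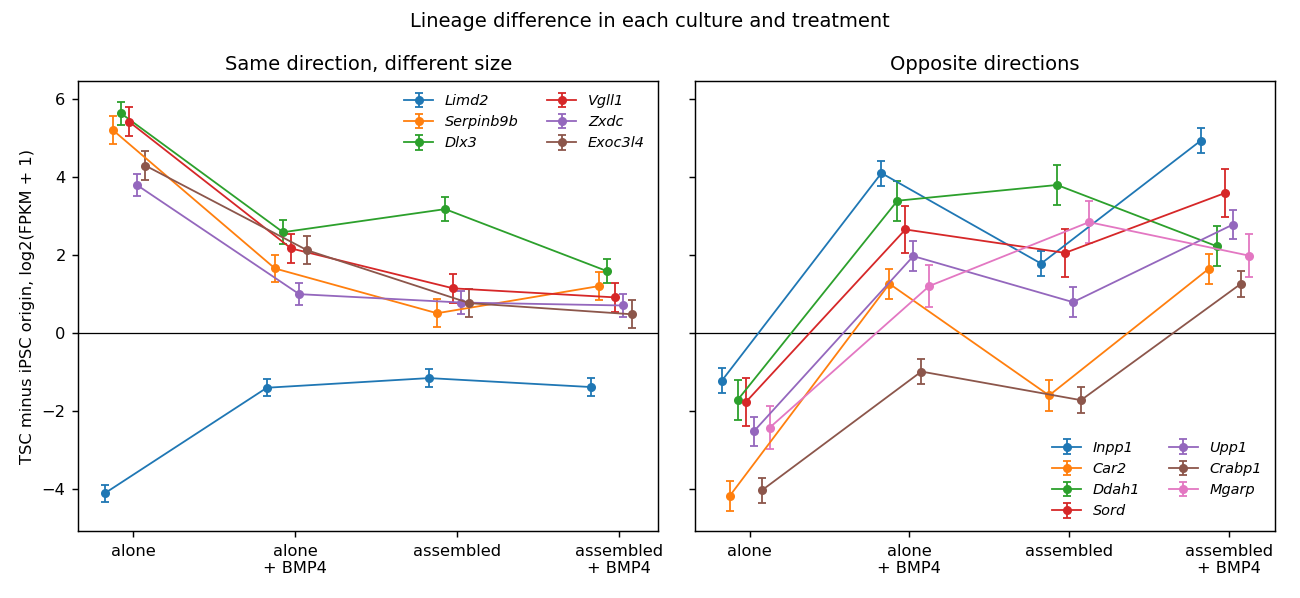
Difference between TSC and iPSC origin on the log2(FPKM + 1) scale in the 4 conditions, with bars of 1 SE from limma, for constants whose size varied (left) and for genes with opposite directions (right). Values above 0 are higher in TSC origin; Dlx3 lies at 5.64 in cells alone and 1.58 in assembled parts with BMP4, and Inpp1 at -1.23 in cells alone and 4.94 in assembled parts with BMP4.

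The constants were unevenly spread over the chromosomes, a feature that was noticed after the values had been seen. Chromosomes could be given to 13046 of the genes tested (97.3%). Chromosomes 1 and 11 held 14.0% of these genes and 186 of the 548 higher constants with a known chromosome (33.9%). Of the genes tested on chromosome 1, 11% were higher constants, on chromosome 11 9.64%, and on all others together 3.23%. Among the higher constants named, Grb10, Mgat4b, Ubb, Rpl26, Dlx3 and Tex19.1 lie on chromosome 11, and Nabp1, Tagln2 and Dbi on chromosome 1. Hand1 on chromosome 11 and Tfcp2l1 on chromosome 1 rose but overlapped. Chromosome 11 also held 28 lower constants, Tmem88, Wnt3 and Limd2 among them, and chromosome 1 held 21, with Zdbf2 among them. The shift was shared by whole chromosomes. For each library, the deviation of every gene with a mean of at least 5 FPKM from its mean in iPSC origin was taken on the log2(FPKM + 1) scale, and the median over a chromosome was set against the library's median over all genes. For chromosome 11 this median was 0.434 to 0.529 in the 8 libraries of TSC origin and -0.0755 to 0.118 in the 8 of iPSC origin. For chromosome 1 it was 0.324 to 0.400 in TSC origin and -0.0434 to 0.0932 in iPSC origin. The lineages did not overlap on either chromosome, and the highest iPSC-origin values were those of replicate 2 of the assembled part with BMP4. In blocks of 25 neighbouring genes, the median lineage difference was above 0 in 16 of 16 blocks on chromosome 1 and in 25 of 26 on chromosome 11. When each library was centred by chromosome, an alternative chosen after seeing the data, 60 of the 186 higher constants on these chromosomes remained constants and 169 still passed the test, while 364 of the 373 others, unplaced genes included, remained constants. Genomic DNA was not measured, so the number of chromosome copies in either line was not tested.

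**Figure D5:**
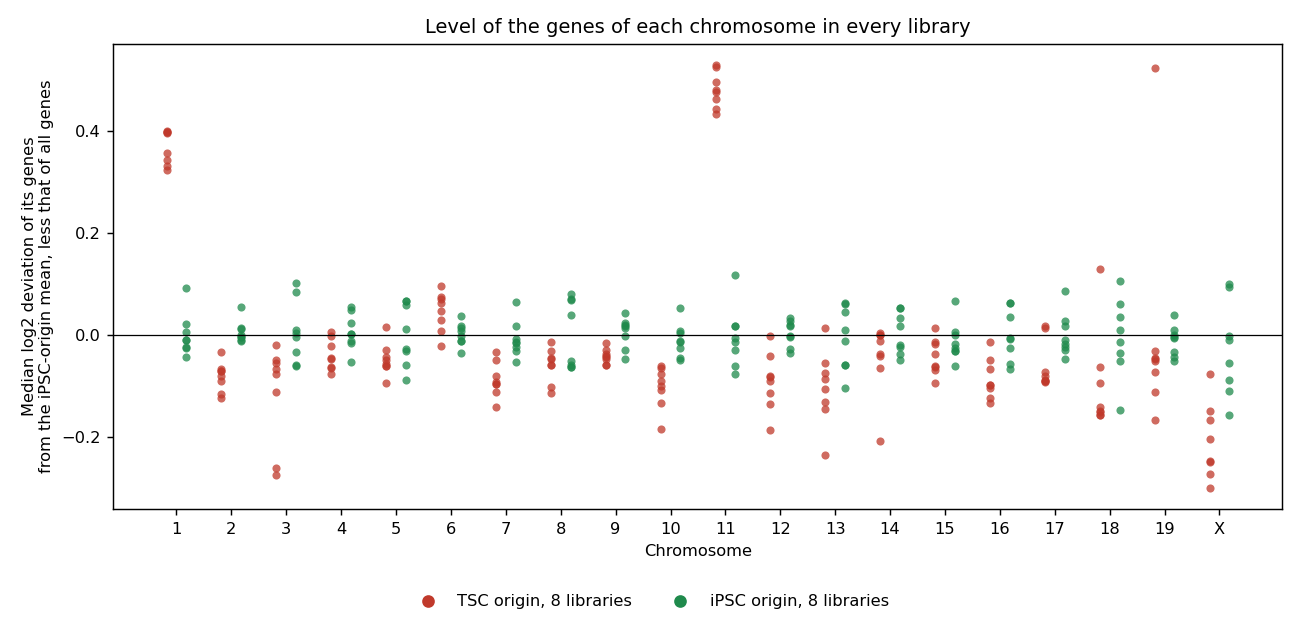
Median deviation, on the log2(FPKM + 1) scale, of the genes of each chromosome from their mean in iPSC origin, less the median of all genes of the library; 1 point per library, with TSC origin in red and iPSC origin in green to its right. Chromosomes 1 (0.324 to 0.400) and 11 (0.434 to 0.529) stand above the rest in all 8 TSC-origin libraries, and chromosome 19 does so in 1 of them (0.523).

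The sex chromosomes differed between the lineages as well. Xist, the RNA that coats the inactive X, was a constant, at 3.15, 9.27 and 12.7 FPKM in TSC origin and 0.0260, 0.185 and 1.99 FPKM in iPSC origin (2.65 ± 0.29, adjusted p = 2.54e-06). Its antisense partner Tsix also rose (2.00 ± 0.27), and without strand information reads of the pair cannot be told apart. The Y-linked Ddx3y stood at 0, 0.0170 and 0.277 FPKM in TSC origin and at 2.06, 5.51 and 7.21 FPKM in iPSC origin, and Uty at 0, 0.0233 and 1.30 FPKM in TSC origin and at 1.42, 3.81 and 7.19 FPKM in iPSC origin. Both were constants, so the 2 lineages also differed in sex-linked expression in every library. Eif2s3y fell too (-3.77 ± 0.55) but overlapped, because replicate 2 of the assembled iPSC part stood at 0.0550 FPKM. On the X chromosome 12.4% of the genes tested were lower constants, Tspan6 and Armcx2 among them, against 5.17% over all genes, and 5.01% were higher ones, with the Rhox genes among them. The median deviation of its genes was -0.299 to -0.0760 in TSC origin and -0.156 to 0.101 in iPSC origin, and overlapped.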

How the data were processed

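RNA was measured in 16 libraries, deposited by the authors as FPKM in a single table. The tools CASAVA and TopHat2 and the builds mm9 and hg19 are named, without role or version, in the submitters' processing notes; neither the FPKM program nor its annotation or strand setting was stated. Read counts cannot be recovered (192 positive values of the genes tested lie below 1e-10 FPKM), so the depth is unknown and no counting intervals are given. A few symbols were altered to dates before deposit.

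Genes reaching 1 FPKM in 2 or more libraries were fitted as log2(FPKM + 1) in limma 3.58.1 (R 4.3.3, eBayes with trend), with lineage, culture and BMP4 as additive terms (12 residual degrees of freedom); this scale understates the fold of low genes. Differences are TSC minus iPSC origin. Conditions were compared on 8 group means (8 residual degrees of freedom), with a moderated F for varying differences. Tests were two-sided, with Benjamini-Hochberg adjustment over all 13406 genes and a threshold of 0.05. The fits were tested on simulated data. Constants are genes past the threshold whose 8 libraries of each lineage do not overlap; they were not tested further, and all 1252 genes that did not overlap had passed.

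The text names the 12 constants per direction with the widest gap and the 6 further ones with the largest difference (both with a mean of at least 5 FPKM), up to 4 called members per list and direction, fixed markers, the most abundant constants, and genes with varying or opposite differences; predicted and small RNA names were left out, and a few genes that meet the rule are not reported here. Other list members are named where a count turns on them, after their values were seen. Members, lists and rules were chosen with earlier results of these data known. Same-numbered libraries did not deviate together (correlations of -0.0541 to -0.0173). Alternatives were other pseudocounts, filters, scalings, weights, covariates and blocks, a 2-fold threshold and leaving out libraries. Chromosomes and promoters came from RefSeq (GRCm38.p6) by symbol. Figures used Python 3.11.15, pandas 2.3.3 and matplotlib 3.10.9.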

Additional observations from a re-analysis of the deposited data

Results flagged for a closer look

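The lineage difference varied between the 4 conditions in 746 genes by limma's moderated F, which tests the difference between conditions itself. The constants with the smallest adjusted p were Limd2 (0.000823), Serpinb9b (0.00114), Dlx3 (0.00136), Vgll1 (0.00185), Zxdc (0.00292) and Exoc3l4 (0.00418), each with the difference farthest from 0 in cells alone without BMP4. Among genes that passed in opposite directions in 2 conditions, the adjusted p of the same test was 8.5e-05 for Inpp1, 0.000323 for Car2, 0.000523 for Crabp1, 0.000913 for Upp1, 0.00387 for Ddah1, 0.00801 for Mgarp and 0.013 for Sord. Both sets were chosen by this test or by the spread of the same differences. Their small values thus largely follow from the choice and add no support.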

How the results depend on the processing

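The number of genes differing by lineage (5629) and of constants (1252) stayed within 1.5 times of these counts under every other filter, pseudocount, scaling, weighting, choice of covariates and left-out library, with 4653 to 6546 genes and 1069 to 1615 constants outside the leave-one-out fits. Dropping the genes of chromosomes 1 and 11, an alternative chosen after seeing the data, left 4668 genes and 1017 constants. Asking for a 2-fold difference as well left 2193 genes and 961 constants. A replicate block with the number as a term gave 5482 genes, one with 8 same-numbered pairs gave 4994, and both gave 1252 constants. Pseudocounts, weights, covariates and blocks leave the order of the libraries in each gene unchanged. Under them the number of constants could only stay or fall, so its stability there adds no support. Upper quartile rescaling gave 45.2% higher calls, against 50.7%. Leaving out 1 library gave 5053 to 5740 genes and 1289 to 1488 constants; 131 to 1084 genes with varying differences; 3045 to 5053 genes in cells alone, 959 to 2765 alone with BMP4, 901 to 2559 in assembled parts and 502 to 1632 in assembled parts with BMP4. A fit of the 4 libraries of a condition alone gave 1195 genes in cells alone with BMP4 and 8 in assembled parts with BMP4; it has fewer libraries to estimate the spread. Among genes that had not passed, leaving out 1 library gave -0.0307 to 1.09 for Dnmt3l, which changed sign without replicate 1 of the BMP4-treated assembled iPSC parts, and -0.4998 to 0.103 for Cdh1, which changed sign without replicate 1 of the BMP4-treated assembled TSC parts. With chromosomes centred, 5394 genes and 1188 constants were called, 1015 of them shared. The depth is unknown, so what it limits cannot be given.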

Other observations

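Replicate 2 of TSC alone stood apart on chromosome 19, where the median deviation of its genes from the iPSC-origin mean, less that of all genes, was 0.523, against -0.166 to -0.0313 in the other TSC-origin libraries and -0.0513 to 0.0405 in the 8 of iPSC origin. On chromosome 3 the lowest values belonged to both libraries of TSC alone, at -0.260 and -0.273.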
